A study of Arabidopsis thaliana with 24 samples.

Results

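The 12 wild-type (WT) libraries among the 24 RNA-seq libraries of the series were used to ask how much of the expression difference between the Arabidopsis thaliana accessions Landsberg erecta (Ler) and Columbia (Col-0, Col) was carried over to the Ler and Col alleles inside F1 hybrids. Members were taken by genotype and cross from the sample labels: all 6 parental WT libraries and all 6 WT F1 libraries. For each gene, the log2 Ler/Col ratio between parents was the parental difference, the log2 ratio of Ler to Col allele counts within F1 libraries was the allelic difference, and the parental difference minus the allelic difference was called the remainder.

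The WT groups were Ler plants, Col plants, F1 hybrids labelled Col x Ler and F1 hybrids labelled Ler x Col, with 3 libraries each. The labels do not state which plant was the seed parent. The remaining 12 libraries held the same 4 groups in the prmt5-5 mutant, which lacks normal activity of PRMT5, an arginine methyltransferase that acts on splicing proteins. That mutation arose in Col and was moved into Ler by backcrossing over 7 generations, so the Ler mutant may keep Col segments. All libraries came from polyadenylated RNA of entire seedlings grown for 9 days at 22 °C in continuous white light after 4 days of cold, dark stratification, per the extraction protocol in the labels, whereas their growth protocol gives soil and long days. Ler carries a loss-of-function mutation of ERECTA, a receptor kinase of organ shape, which all Ler plants of the series share. Whether replicates were grown or collected separately is not stated, so the tests weigh differences against a spread that may be technical only.

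Expression differences between accessions are commonly divided by where the causal difference lies. A difference in a gene's own promoter, transcript or chromatin acts in cis and stays with its allele, so it persists between the 2 alleles of a hybrid. A difference in a regulator, such as a transcription factor, acts in trans on both alleles alike. It separates the parents and leaves the hybrid's alleles equal. A difference in growth or collection between the Ler and Col plants would give this pattern too, since a hybrid's alleles share their plants. The remainder cannot tell such a difference from that of a regulator, and the part of growth or collection was not tested.

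Parental libraries held 36993754 to 72714639 counts, and F1 libraries held 6047694 to 29376408 counts assigned to an allele. The Ler allele took 48.4% to 48.9% of each F1 total. Of 21318 nuclear genes with a mean of at least 20 parental counts, 15319 also averaged at least 20 summed allele counts per F1 library and were tested. The seedling label was checked against markers, and 39 of 43 photosynthesis genes were tested. All 43 summed to 183700 to 201900 CPM in Ler and 147600 to 187800 CPM in Col. CPM are counts scaled to the TMM-adjusted library size over tested genes. Seed storage genes summed to at most 8.26 CPM in Ler and 1.16 CPM in Col.

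Parental and allelic differences were called for similar numbers of genes, and the remainder for fewer. Between parents, 4842 genes (31.6%) differed, 2259 higher (14.7%) and 2583 lower (16.9%) in Ler. Between alleles, 4590 genes (30%) differed, 2134 with the Ler allele higher (13.9%) and 2456 with it lower (16%). The remainder was called for 1828 genes (11.9%), above 0 for 862 (5.63%) and below 0 for 966 (6.31%). Calls were edgeR quasi-likelihood tests with Benjamini-Hochberg adjusted p under 0.05. The count of called remainders was 1277 without Col replicate 3 and up to 1879 without Ler replicate 1. Because entire seedlings were sampled, more cells of a type and more RNA per cell cannot be told apart in the parental values.

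Across the 15319 genes, the parental and allelic differences had a Pearson r of 0.76 and a Spearman rho of 0.53. They come from separate libraries, and genes are not independent replicates, so no p is attached. The median size of the parental difference was 0.19 on the log2 scale, that of the allelic difference 0.18 and that of the remainder 0.19, with median standard errors of 0.12, 0.11 and 0.16.

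**Figure D1:**
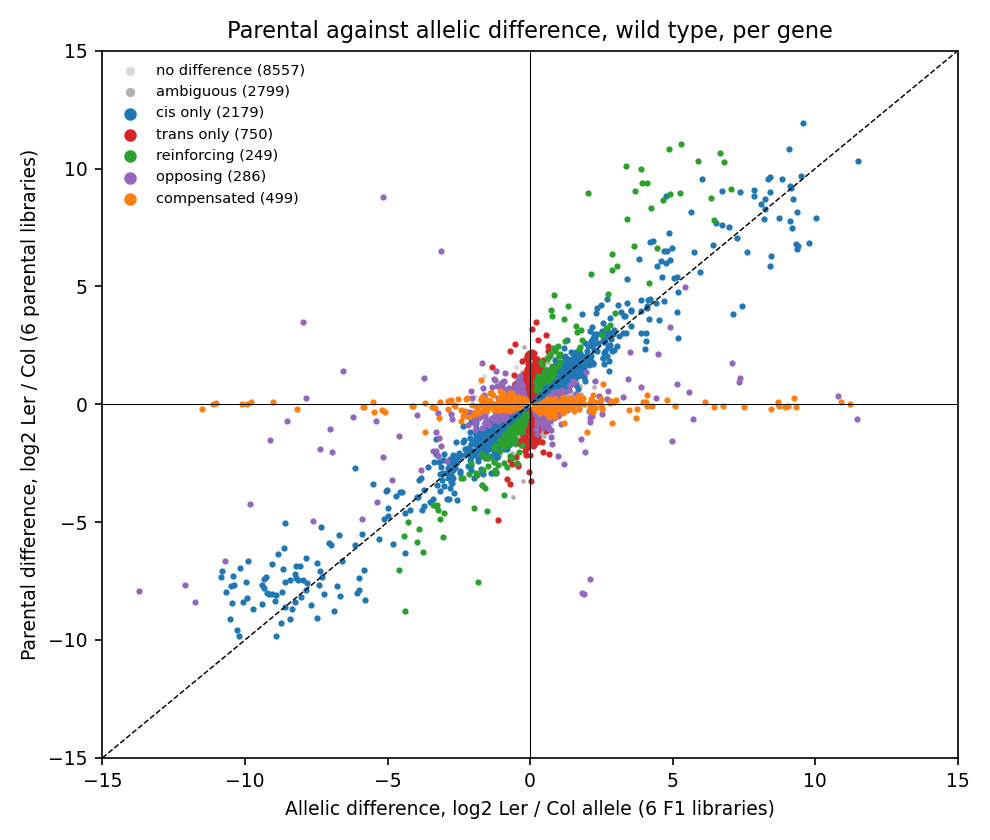
Parental difference (vertical axis, log2 Ler/Col over 6 parental libraries) against allelic difference (horizontal axis, log2 Ler/Col allele over 6 F1 libraries), 1 point for each of 15319 genes, coloured by class; the dashed line marks equality. The 2179 cis-only genes follow the dashed line, the 750 trans-only genes lie along the vertical axis and the 499 compensated genes along the horizontal axis.

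The 3 calls together placed each gene in a class. Cis-only genes, in which parents and alleles differed the same way and the remainder was not called, numbered 2179 (14.2%). Trans-only genes, in which the parents and the remainder were called and the alleles were not, numbered 750 (4.9%). Without Col replicate 3 the trans-only count was 472. All 3 calls were made with the parental difference the larger and of the same sign in 249 reinforcing genes (1.63%), and otherwise in 286 opposing genes (1.87%). Compensated genes, in which the alleles and the remainder were called and the parents were not, numbered 499 (3.26%). Another 2799 genes (18.3%) had an ambiguous combination, and 8557 (55.9%) had no call. A difference that was not called need not be 0, so class names and counts describe calls only. The remainder had the largest median standard error, 0.16, against 0.12 for the parental and 0.11 for the allelic difference. The trans-only genes LAS1 and IPS1, for example, had allelic differences of 0.64 and 0.56.

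Cis-only genes became more frequent as the parental difference grew. Among the 2012 genes called between parents with a difference under 0.5 on the log2 scale, 12.6% were trans only and 38.2% cis only. Trans-only genes took 20.5% of the 1580 genes between 0.5 and 1, 18.8% of the 773 between 1 and 2 and 10.5% of the 257 between 2 and 4. At 4 and over, 1 of 220 genes (0.455%) was trans only and 72.3% were cis only. The allelic difference was at the median 48.2% of the parental difference in the lowest bin and 92.7% in the highest. The calls that define the classes also use the parental difference, so these shares describe the classes and carry no test. Genes were also selected and binned by the parental difference, by which the allelic percentages divide. Part of the rise of these percentages may follow from that choice.

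**Figure D2:**
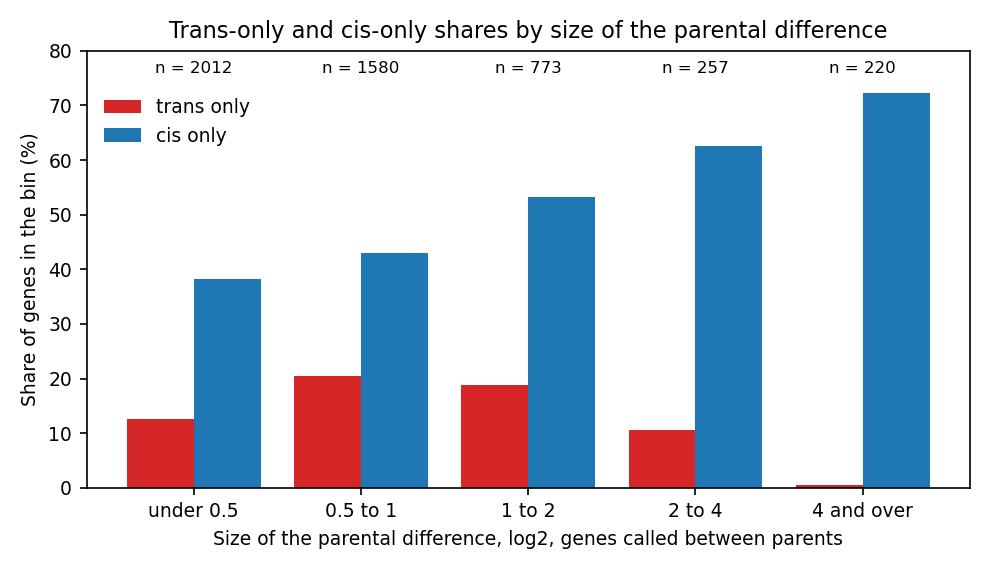
Share of trans-only (red) and cis-only (blue) genes (vertical axis, percent of the bin) among genes called between parents, by size of the parental difference on the log2 scale (horizontal axis), with the number of genes above each bin. The cis-only share is 38.2% in the lowest bin and 72.3% in the highest, and the trans-only share is largest, 20.5%, between 0.5 and 1.

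Flavonoid and anthocyanin genes formed the list with the most called remainders of one sign. These genes make the flavonols and red anthocyanins that screen light in seedlings, under activators of the MYB and bHLH families. Of 28 listed genes, 21 were measured: the remainder was below 0 in 16, above 0 in 1 and not called in 4, with a list median of -0.85 against 0.00 over all genes tested. Of all genes tested, 6.31% had a called remainder below 0 and 5.63% above 0. The parental difference was also called lower in Ler for 16 and higher for 1, with a list median of -0.77, and 15 genes were called below 0 in both, while the allelic difference was called higher for Ler in 7 and lower in 1, with a median of 0.10. The 16 called remainders stayed 16 in each of the 12 fits that left out 1 library. They were 15 with limma-voom and 15 with the alleles of F1 Col x Ler alone. Fits that dropped genes with a near-identical copy, or genes that overlap another gene, left 14 and 11, since listed genes were dropped too.

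4CL3, a 4-coumarate:CoA ligase at the entry to flavonoid synthesis, had 18.7, 22.0 and 20.1 CPM in Ler seedlings, against 58.1, 68.6 and 76.3 CPM in Col seedlings. The highest Ler library was below the lowest Col library. Inside the hybrids, the Ler allele took 50%, 48.6% and 48.9% of 4CL3 counts in F1 Col x Ler and 47.0%, 48.6% and 50.7% in F1 Ler x Col. The parental difference was -1.74 (SE 0.0947), the allelic difference -0.06 (SE 0.0705) and the remainder -1.68 (SE 0.117, edgeR adjusted p = 1.11e-09).

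DFR, the dihydroflavonol reductase that commits the pathway to anthocyanins, had 24.3, 25 and 24.5 CPM in Ler and 56.9, 51.3 and 56.6 CPM in Col. Its Ler allele took 47.8% to 53.2% of counts over the 6 hybrids. The remainder was -1.23 (SE 0.0908, edgeR adjusted p = 2.79e-09). LDOX, which acts after DFR, gave 19.03, 19.8 and 20.3 CPM in Ler against 46.2, 43.3 and 49.3 CPM in Col. The LDOX allele shares ran between 46.9% and 50.7% Ler, although LDOX has a near-identical copy in AT4G22870, so its counts may be divided between the pair. Both genes were separated between parents and near equality between alleles.

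The core enzymes of the pathway showed smaller differences of the same sign. CHS, chalcone synthase and the first committed enzyme, had 304, 412 and 380.1 CPM in Ler and 514, 695 and 608 CPM in Col, with Ler allele shares between 50% and 53.0% and a remainder of -0.83 (SE 0.129). F3H, flavanone 3-hydroxylase, had a remainder of -0.76 (SE 0.148) and FLS1, flavonol synthase, one of -0.88 (SE 0.192). CHI, chalcone isomerase, was different: its parents were not called apart, at 52.6, 68.9 and 58.1 CPM in Ler and 52.6, 73.3 and 63.0 CPM in Col, while the Ler allele took 57.8% to 63.2% of the F1 counts. CHIL, a chalcone isomerase-like gene named here after its values were seen, was trans only, with a remainder of -0.98 (SE 0.119).

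Decorating enzymes and 1 regulator combined a lower level in Ler plants with a higher Ler allele. UGT79B1, an anthocyanin glycosyltransferase, had 7.86, 9.54 and 9.11 CPM in Ler and 19.6, 15.9 and 19.2 CPM in Col, while the Ler allele made up 57.9% to 68.6% of its allele counts. The allelic difference was 0.65 (SE 0.0895) and the remainder -1.71 (SE 0.149). PAP1, a MYB activator of anthocyanin synthesis, had 2.45, 1.95 and 1.75 CPM in Ler and 5.34, 5.55 and 5.33 CPM in Col, against Ler allele shares of 55.1% to 71.4%. Its remainder was -2.13 (SE 0.222, edgeR adjusted p = 5.74e-07). UGT78D1, a flavonol rhamnosyltransferase, was likewise opposing, with a parental difference of -1.24, an allelic difference of 0.25 and a remainder of -1.50.

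MYBL2, a MYB repressor of the same pathway, was the 1 listed gene with a remainder above 0. It had 70.7, 65.8 and 81.4 CPM in Ler and 20.7, 13.2 and 17.0 CPM in Col. The Ler allele made up 60.6% to 73.7% of its F1 counts, so the difference between alleles (1.01, SE 0.125) was called as well as the remainder of 1.07 (SE 0.19, edgeR adjusted p = 0.0011). TT8, a bHLH activator, was trans only with a remainder of -1.27 (SE 0.282), while TTG1, EGL3 and MYB12, other regulators of the pathway, had no call of any kind.

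**Figure D3:**
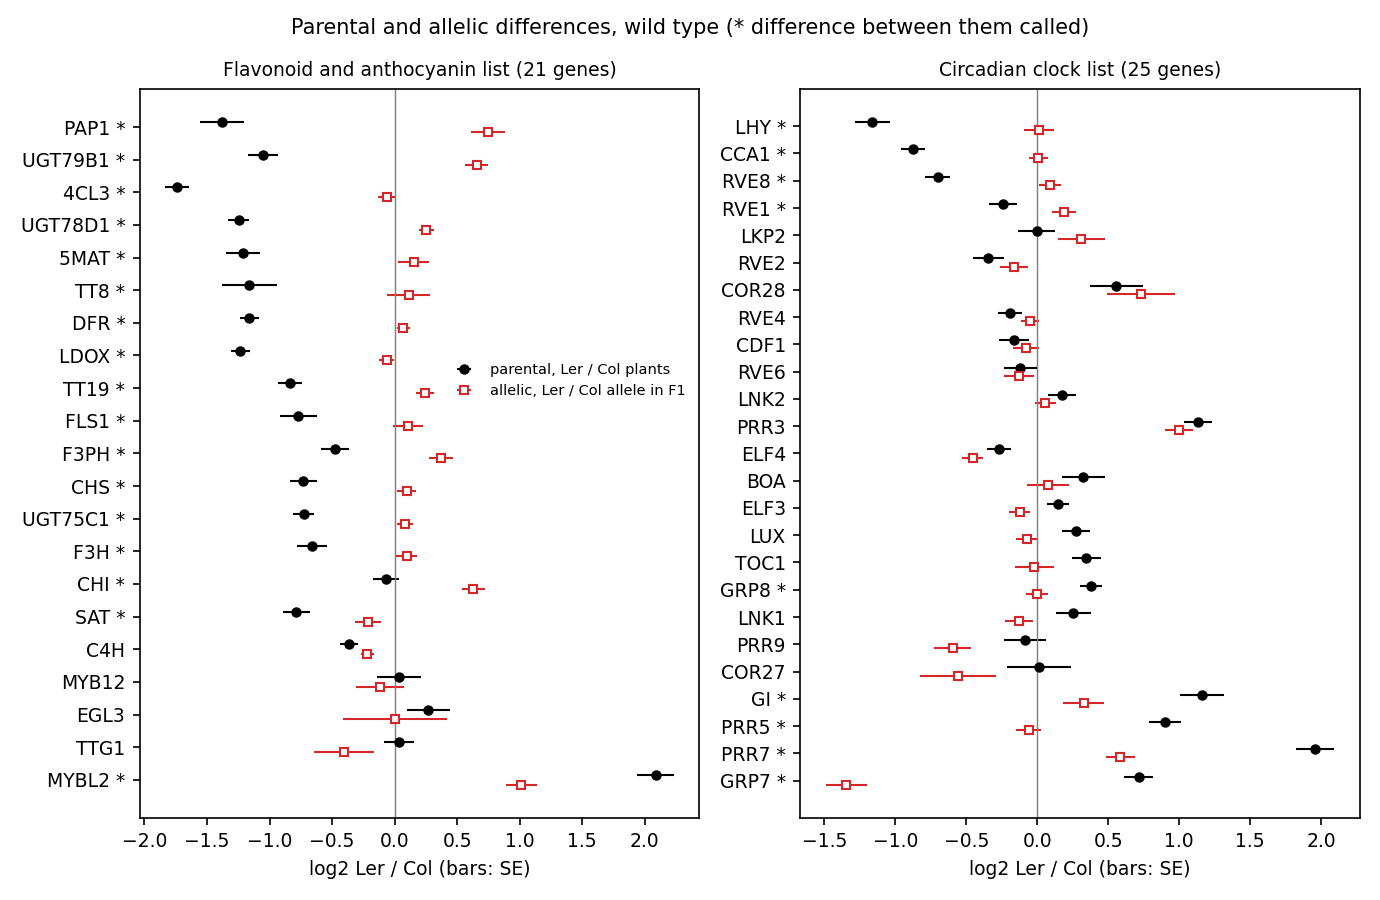
Parental difference (black circles) and allelic difference (open red squares) on the log2 scale (horizontal axis), with standard errors as bars, for the 21 measured flavonoid and anthocyanin genes and the 25 measured circadian clock genes; asterisks mark called remainders. In the flavonoid panel 16 genes have the black circle left of the red square and a call, and MYBL2 has it to the right with a call.

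The 300 bases before the annotated start of 4 flavonoid genes are shown as examples, each from another step of the pathway. These 4 were lower in Ler plants and carry 1 or both of 2 motifs of light and MYB regulation. Some other listed genes carry these motifs too, and others lack both. Sequences are from the RefSeq annotation of TAIR10.1, a Col genome, 5′ to 3′ on the gene's strand. Capitals mark CACGTG, the G-box bound by bHLH and bZIP factors, and ACCNACC, a MYB-binding core, searched on both strands with no overlap between the motifs. The windows are chr1:24171636-24171935 (minus strand) for 4CL3, chr5:17166033-17166332 (minus) for DFR, chr5:4488176-4488475 (plus) for CHS and chr5:21938397-21938696 (minus) for UGT79B1.
4CL3: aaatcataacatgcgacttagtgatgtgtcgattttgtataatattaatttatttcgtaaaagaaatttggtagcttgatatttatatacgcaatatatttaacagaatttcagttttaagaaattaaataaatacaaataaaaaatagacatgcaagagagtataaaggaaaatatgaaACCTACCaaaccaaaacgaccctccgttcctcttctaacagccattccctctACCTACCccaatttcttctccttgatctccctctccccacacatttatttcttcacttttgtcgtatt
DFR: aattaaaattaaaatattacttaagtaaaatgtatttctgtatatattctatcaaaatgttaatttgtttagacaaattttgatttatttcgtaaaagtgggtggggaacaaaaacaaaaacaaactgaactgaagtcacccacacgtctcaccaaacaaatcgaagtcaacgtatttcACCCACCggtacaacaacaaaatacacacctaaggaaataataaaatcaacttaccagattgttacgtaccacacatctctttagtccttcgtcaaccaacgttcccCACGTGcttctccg
CHS: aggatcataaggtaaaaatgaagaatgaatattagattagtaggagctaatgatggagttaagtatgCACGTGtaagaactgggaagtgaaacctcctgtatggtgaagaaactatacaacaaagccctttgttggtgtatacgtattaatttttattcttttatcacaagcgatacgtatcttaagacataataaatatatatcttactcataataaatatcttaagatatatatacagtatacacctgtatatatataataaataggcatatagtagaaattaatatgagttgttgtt
UGT79B1: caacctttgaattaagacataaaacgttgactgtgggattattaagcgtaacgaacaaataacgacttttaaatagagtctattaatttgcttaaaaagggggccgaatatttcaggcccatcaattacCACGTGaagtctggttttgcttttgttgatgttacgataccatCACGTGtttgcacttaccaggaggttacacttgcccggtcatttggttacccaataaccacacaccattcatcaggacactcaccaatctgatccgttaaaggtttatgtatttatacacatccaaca
DFR held both motifs, 4CL3 held ACCNACC only, and CHS and UGT79B1 held CACGTG only. Of the windows of the 28 listed genes, 8 (28.6%) held CACGTG, against 1945 of 27443 protein-coding genes (7.09%). ACCNACC was found in 7 of the 28 (25%), against 1944 of 27443 (7.08%). LDOX, UGT78D1, FLS1 and PAP1, also with remainders below 0, held neither motif, while MYB12, which had no call, held both. The 28 windows include 7 genes that were not measured. These matches describe Col letters, carry no test and do not link a motif to the level in Ler.

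Called clock genes lay on both sides of 0. The circadian clock list had 25 measured genes of 29, with remainders above 0 in 5, below 0 in 4 and not called in 16, and a median of 0.18. Of all genes tested, 5.63% were called above 0 and 6.31% below 0. The morning MYB-related genes CCA1, LHY, RVE8 and RVE1 were the 4 below 0, and PRR7, PRR5, GI, GRP7 and GRP8 the 5 above. Pseudo-response regulators such as PRR7 and PRR5 repress CCA1 and LHY.

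CCA1 had 96.6, 85.1 and 81.8 CPM in Ler and 170.0, 138 and 175 CPM in Col, while its Ler allele share stayed within 48.8% to 51.8%, for a remainder of -0.88 (SE 0.109, edgeR adjusted p = 6.25e-06). LHY had 129, 98.1 and 94.9 CPM in Ler and 239, 233 and 249 CPM in Col, and a remainder of -1.18 (SE 0.162). PRR5 was the reverse, at 27.6, 34.1 and 35.7 CPM in Ler and 16.5, 15.8 and 19.6 CPM in Col, with a remainder of 0.96 (SE 0.142). All 3 genes were trans only, and the part of growth or collection time in their values was not tested. Their parental groups did not overlap, which adds no support beyond the parental calls.

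PRR7 was reinforcing. Its level was 210.1, 198 and 229 CPM in Ler and 68.7, 41.0 and 53.9 CPM in Col, the Ler allele held 55.9% to 62.2% of its F1 counts, and the parental difference of 1.96 divided into an allelic difference of 0.58 and a remainder of 1.37 (SE 0.166, edgeR adjusted p = 3.06e-05). GRP7, a clock-controlled RNA-binding protein, had a remainder of 2.06, but that value rests on few allele counts: 288 Ler and 745 Col counts over 6 hybrids. Its summed allele CPM was 0.0108 times the mean parental CPM, each scaled to its own library. The 5 remainders above 0 were 3 without F1 Col x Ler replicate 2.

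Glucosinolate genes, which make the sulfur defence compounds of Brassicales, showed both classes side by side. AOP3, a side-chain dioxygenase, was cis only: it had 197, 139.6 and 150 CPM in Ler and 0.187, 0.188 and 0.398 CPM in Col, and its Ler allele supplied 99.7% to 99.9% of F1 counts. The parental difference was 9.195, the allelic difference 9.14 and the remainder 0.06 (SE 0.473, edgeR adjusted p = 0.965). Its neighbour AOP2 had 2.67, 2.17 and 2.47 CPM in Ler and 30.8, 25.97 and 29.8 CPM in Col, but the Ler allele held 13.1% to 41.3% of F1 counts, leaving a remainder of -1.97 (SE 0.273). AOP2 was closer to equality between alleles than between parents.

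Of the 27 measured genes of 32 in the aliphatic glucosinolate list, 1 had a called remainder above 0 and 5 below 0, with a median of -0.21. The shares over all genes tested were 5.63% above 0 and 6.31% below 0. MAM1 and MAM3, chain-elongation enzymes, and the regulator MYB29 were cis only, with parental differences of -1.46, 0.82 and -1.89. CYP79F1, which makes aldoximes from elongated methionine, was trans only at 138, 94.7 and 109 CPM in Ler and 225, 169.7 and 201 CPM in Col.

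IGMT2, an indole glucosinolate methyltransferase, had the largest parental difference above 0 among trans-only genes that averaged at least 50 counts per parental library and 50 summed allele counts per F1 library. It had 26.2, 28.4 and 27.6 CPM in Ler and 3.82, 3.29 and 2.03 CPM in Col. The Ler allele took 46.8%, 52.9% and 56.5% in F1 Col x Ler and 53.0%, 51.7% and 44.4% in F1 Ler x Col, and the remainder was 3.13 (SE 0.205, edgeR adjusted p = 2.47e-09). The tandem neighbours IGMT1, IGMT3 and IGMT4 were named after their values were seen. IGMT3, 96.3% identical to IGMT2 over 1363 bases, had a remainder of 1.09 (SE 0.251), and IGMT1 one of 1.09 (SE 0.296) from 77 Ler and 127 Col allele counts. The call of IGMT3 was lost without F1 Col x Ler replicate 3, and that of IGMT1 without F1 Col x Ler replicate 1 or 3 or F1 Ler x Col replicate 2. IGMT4 had a remainder of 0.02 (SE 0.137) with 11179 Ler and 10401 Col allele counts.

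In the myrosinase, specifier and nitrilase list, the remainder was above 0 in 8 of 20 measured genes, below 0 in 2 and not called in 10, with a median of 0.45. The shares over all genes tested were 5.63% above 0 and 6.31% below 0. PYK10, the beta-glucosidase stored in ER bodies of roots and seedlings, had 4471, 4883 and 4618 CPM in Ler and 3013, 2648 and 2604 CPM in Col, with Ler allele shares of 49.0% to 51.8% and a remainder of 0.71 (SE 0.0897). Its partner lectins and lipases PBP1, JAL22 and GLL22 had remainders of 0.75, 1.36 and 0.51.

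NAI2, JAL31 and JAL33, genes of ER bodies or lectins, were chosen after their values were seen. NAI2, which is needed for ER-body formation, had 549.7, 621 and 577 CPM in Ler and 319, 281 and 277 CPM in Col, with allele shares of 50.5% to 51.9%. JAL33 had 428, 523 and 458 CPM in Ler and 169.8, 145 and 141 CPM in Col, with a remainder of 1.62 (SE 0.103). JAL31 had a remainder of 1.099 (SE 0.109). For these 3 genes each Ler library was above each Col library, which adds no support, since the genes were chosen after viewing.

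ESM1, a modifier of glucosinolate breakdown, was mostly a difference between alleles. It had 94.5, 115 and 101 CPM in Ler and 943, 894 and 1026 CPM in Col, and its Ler allele held 3.11% to 3.53% of F1 counts. The allelic difference of -4.85 exceeded the parental difference of -3.21, which left a remainder of 1.64 (SE 0.0966). NSP4 and NSP1, nitrile-specifier proteins, are 95.02% identical to each other over 1446 bases; NSP4 had 66.5, 73.3 and 61.9 CPM in Ler and 25.2, 24.7 and 26.4 CPM in Col, yet 0.843% to 1.79% Ler allele counts.

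Immune receptors of the NLR family had called remainders below 0 in 8 of 27 measured genes of 33, with a list median of -0.28. The share called below 0 over all genes tested was 6.31%. SNC1 had 56.4, 55.9 and 56.5 CPM in Ler and 236, 216 and 239 CPM in Col, with Ler allele shares of 39.9% to 47.2% and a remainder of -1.66 (SE 0.0931, edgeR adjusted p = 3.26e-11). RPP5 in the same cluster of chromosome 4 had 40.2, 53.2 and 44.8 CPM in Ler and 137, 108 and 123 CPM in Col and a remainder of -1.52 (SE 0.166). Of the 27 measured genes, 6 have a near-identical copy, so counts may be divided between paralogs. A new fit without all genes that have such a copy left 1 call below 0. That fit also changed scaling and adjustment. The count was 5 without F1 Col x Ler replicate 3, without any 1 of the F1 Ler x Col replicates, and without Col replicate 1 or 3.

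Other lists held fewer calls or rested on individual genes, against 5.63% of all genes tested called above 0 and 6.31% below 0. All 4 called remainders of the auxin response list, of 11 measured genes of 22, were above 0: IAA19, IAA2, IAA1 and IAA5, which encode short-lived repressors of auxin signalling. IAA19 had 14.3, 15.3 and 13.4 CPM in Ler and 9.90, 7.31 and 7.41 CPM in Col, and a remainder of 0.97 (SE 0.183). The auxin count was 1 without Col replicate 3 and 2 without Ler replicate 3 or F1 Ler x Col replicate 3. SEP3, a MADS-box gene of floral organs, had 8.18, 7.50 and 9.23 CPM in Ler and 0.862, 0.816 and 0.554 CPM in Col, with a remainder of 3.29 (SE 0.398). Of the 7 floral organ markers 2 were measured, and all 7 summed to 12.6 to 17.5 CPM in Ler and 3.02 to 3.86 CPM in Col. None of the 7 was at 0 counts in all 6 parents. AP1, AP3, PI, AG and SEP2 were too low to be tested, and the part of floral organs in the SEP3 value was not tested.

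Jasmonate genes had 6 called remainders below 0 and 1 above among 22 measured of 29, against 6.31% below and 5.63% above over all genes tested. VSP2, a vegetative storage protein induced by jasmonate, had a parental difference of -2.90, an allelic difference of -1.91 and a remainder of -0.99 (SE 0.2). In the salicylic acid and camalexin list 1 gene of 22, the camalexin enzyme PAD3, had a called remainder, of 1.84. In the cold, drought and ABA list, 4 remainders were above 0 and 1 below among 20 genes. KRP1, a kinase inhibitor with the smallest p of the 19 measured cell cycle genes, had a remainder of -0.44 that was not called (edgeR adjusted p = 0.0507), and PRP1, first among 6 root hair markers, one of 1.64 that was not called (edgeR adjusted p = 0.113).

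Among 23 measured flowering-time genes of 31, SOC1 had a called remainder above 0 and AGL24 one below 0, against 11.9% called over all genes tested. SOC1 and AGL24 are MADS-box promoters of flowering, and AGL24 had a parental difference of -1.64, an allelic difference of -0.53 and a remainder of -1.11 (SE 0.217). The call of SOC1 was lost without F1 Col x Ler replicate 1 or 3, F1 Ler x Col replicate 1 or 3, Col replicate 2 or 3, or Ler replicate 3. The flowering regulator FRI had a parental difference of -2.32 and an allelic difference of -2.81, and its remainder of 0.48 was not called (edgeR adjusted p = 0.178). RNA silencing and DNA methylation genes had 1 call among 20, ROS1, a DNA demethylase, at 0.52. Its call was lost without F1 Col x Ler replicate 2. Splicing factors had 3 above 0 and 1 below among 29, near the 11.9% called over all genes, and PRMT5 itself was not among them.

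Light-signalling genes had 3 called remainders above 0 and 1 below among 16 measured genes of 18, against 11.9% called over all genes tested. PIF1, a bHLH repressor of seed germination and greening, had 37.2, 36.6 and 36.9 CPM in Ler and 28.7, 24.3 and 26.4 CPM in Col, while its Ler allele gave 28.3% to 37.9% of F1 counts, for a remainder of 1.45 (SE 0.122). PHYE, a phytochrome, was the reverse, with 57.2, 57.3 and 53.1 CPM in Ler and 69.3, 66.6 and 76.6 CPM in Col, 63.6% to 73.9% Ler allele counts and a remainder of -1.30 (SE 0.117, edgeR adjusted p = 6.73e-08). In both genes the parents and the alleles differed in opposite directions. EPF2, a secreted peptide that limits stomatal density, had a remainder of 1.36 (SE 0.347) and was 1 of 2 called among 10 measured genes of the ERECTA and stomatal lineage list. The other, FAMA, a bHLH factor of guard cells, was at 0.50 and lost its call without F1 Col x Ler replicate 1 or 2, F1 Ler x Col replicate 1 or 3, or replicate 1 or 2 of either parent. TRY, a repressor of trichomes, was at -0.80 and lost its call without F1 Col x Ler replicate 3, F1 Ler x Col replicate 1 or 2, or replicate 2 or 3 of either parent.

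Photosynthesis genes had 11 called remainders above 0 and 4 below among 39, against 5.63% and 6.31% over all genes tested. Many of them belong to families of similar copies. RBCS3B and RBCS1B, small-subunit genes of Rubisco, had remainders of -2.91 (SE 0.109) and 1.4 (SE 0.0841), in opposite directions, with Ler allele shares of 83.7% to 87.1% and 19.5% to 21.1%. The parents differed by -0.39 and -0.56. LHCB1.1, LHCB1.2 and LHCB1.3, antenna proteins encoded by similar genes, had remainders of 1.102, 1.81 and 1.33. How reads of such families were divided between members and alleles was not tested.

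**Figure D4:**
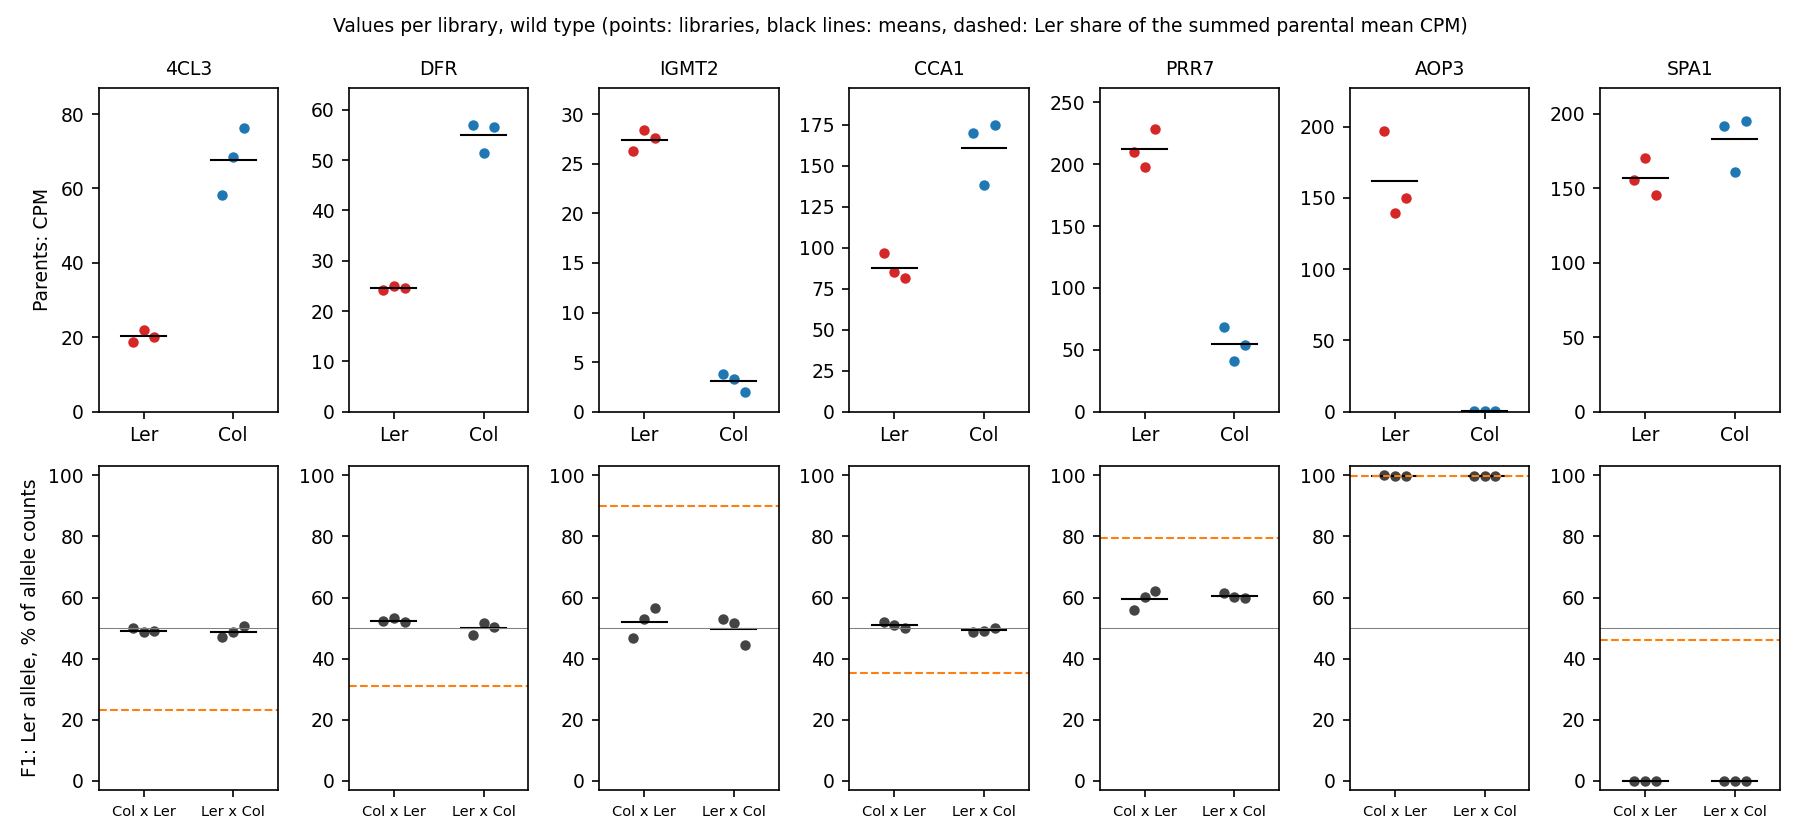
Values of 7 genes in every wild-type library: CPM of the Ler and Col parents (upper panels) and percent of allele counts from the Ler allele in both F1 crosses (lower panels); points are libraries, black lines means, and the dashed line is the Ler share of the summed parental means. The F1 points of 4CL3, DFR, IGMT2 and CCA1 lie near 50%, those of AOP3 lie on the dashed line and those of SPA1 lie near 0.

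The largest trans-only differences below 0 included RLP42, a receptor-like protein. It had 0.603, 0.91 and 1.25 CPM in Ler and 9.26, 9.44 and 7.38 CPM in Col, with 253 Ler and 241 Col allele counts in the hybrids, and a remainder of -3.29 (SE 0.332). AT4G39180, a SEC14-like lipid-transfer protein, had 2.11, 2.35 and 3.32 CPM in Ler and 11.7, 11.4 and 11.5 CPM in Col, and a remainder of -2.16 (SE 0.302). AT3G44970, a cytochrome P450, had a remainder of -2.00 (SE 0.34). The remainder of AT1G66090, a TIR-NBS gene, was -2.14 (SE 0.526), and its call was lost without replicate 3 of either F1 cross.

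On the higher side were IPS1, a non-coding RNA induced by phosphate starvation, LAS1, a lanosterol synthase, and ACS4, an ethylene-synthesis enzyme. IPS1 had 6.46, 11.1 and 8.45 CPM in Ler and 1.84, 1.00 and 0.519 CPM in Col, with a remainder of 2.38 (SE 0.524). ACS4 had 10.6, 11.96 and 15.4 CPM in Ler and 3.43, 2.38 and 2.39 CPM in Col, and a remainder of 2.05 (SE 0.289). LAS1 had 7.25, 7.08 and 8.89 CPM in Ler and 1.2, 1.6 and 1.35 CPM in Col, a remainder of 1.86 (SE 0.413), and 198 Ler and 125 Col allele counts. Their parental groups did not overlap, which their choice for a large parental difference made likely.

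Cis-only genes with the largest parental differences were nearly absent from 1 accession and from its allele. The peroxidase AT1G05250, which has a near-identical copy in AT1G05240, had 6.80, 10.8 and 12.3 CPM in Ler and 1 count in all over the 3 Col libraries, and 994 Ler against 1 Col allele counts in the hybrids. AT3G44070, a family 35 glycosyl hydrolase, had 2471 counts over the Ler parents and 0 over the Col parents, so it was at least 954-fold higher against a floor of 3 counts over the group. AT3G29776, of unknown function, was the mirror image, with 0 counts in Ler parents, 674 in Col parents, 0 Ler allele counts and 524 Col allele counts.

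Among reinforcing genes, AT5G20750, of unknown function, had 86.3, 63.8 and 79.7 CPM in Ler and 6 counts in all in Col parents, while the Col allele still gave 96 of its counts in hybrids against 9362 from the Ler allele. Its parental difference was 10.67, its allelic difference 6.66 and its remainder 4.01 (SE 0.467). AT3G43740, a leucine-rich repeat gene, was the counterpart lower in Ler, with 6 counts over the Ler parents, 3291 over the Col parents and a Ler allele share of 3.17% to 7.55%.

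Of the 20 largest called remainders, 10 in each direction, 17 came from genes in which 1 allele gave under 1% of the hybrids' allele counts. The other 3 went the other way, with 1 parent near absent and both alleles present: AT3G28160 and AT5G28350, low in Ler plants (parental differences -8.04 and -7.99, allelic differences 1.88 and 1.81), and AT1G27580, low in Col plants (6.49 and -3.14). All 3 have a near-identical copy elsewhere in the genome. SPA1, a light-signalling repressor that acts with COP1, had 155, 170.3 and 145 CPM in Ler and 192, 161 and 195 CPM in Col, but 1 Ler against 2680 Col allele counts over 6 hybrids. ACX3, a peroxisomal acyl-CoA oxidase, had 70.1, 96.9 and 77.9 CPM in Ler and 86.8, 71.1 and 84.5 CPM in Col, with 0 Ler and 997 Col allele counts, and it has a near-identical copy in AT3G06690. LIS, a WD-40 protein, had 0 Ler and 467 Col allele counts. The reverse held for DI19, a zinc-finger protein of drought response, with 24580 Ler and 50 Col allele counts, and for RL3, with 1219 Ler and 0 Col counts.

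In all, 130 of 15319 genes gave under 1% of allele counts from 1 allele, 93 of them cis only, 19 compensated, 16 opposing and 2 reinforcing. The remainder is by construction the log2 ratio of Col to Ler allele counts in the hybrid, each taken relative to its own parent's counts, so loss of 1 allele's reads during assignment and loss of its transcript cannot be told apart in these counts. For these 5 genes, from SPA1 to RL3, the same allele was at or near 0 in both crosses and in prmt5-5 hybrids, where the Ler allele held 0.135% of counts for SPA1, 0% for ACX3, 0.147% for LIS, 99.7% for DI19 and 99.8% for RL3.

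Classes also differed in how often a gene had a near-identical copy elsewhere in the genome (95% identity over at least 100 bases). Such copies were found for 3.26% of all genes tested, 16.8% of opposing, 10.8% of reinforcing, 7.01% of compensated, 4.87% of cis-only and 3.47% of trans-only genes. Summed allele CPM over the mean parental CPM had a median of 0.98 over all genes, 1.04 in trans-only genes, 0.615 in compensated genes and 1.79 in cis-only genes. Each CPM was scaled to its own library, so this ratio ranks genes against each other and is not the fraction of reads assigned. It also holds any expression difference between hybrids and parents. Among the 3064 genes with the lowest such ratio, 1 of 5 groups of about equal size, 14.4% had a called remainder and 6.98% were compensated, against 9.4% to 12.6% called and 2.22% to 2.38% compensated in the other 4 groups. The part of copies and of assignable length in these calls was not tested.

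Called remainders were spread over the genome. They took 12.7% of 3853 genes on chromosome 1, 11.9% of 2299 on chromosome 2, 10.5% of 2992 on chromosome 3, 13.1% of 2439 on chromosome 4 and 11.5% of 3670 on chromosome 5. Trans-only genes took between 4.69% (chromosome 5) and 5.45% (chromosome 4).

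The allelic difference was compared between crosses, since the parents are shared and cannot differ. By edgeR, 1 of 15319 genes (0.00653%) was called, and 754 had an unadjusted p under 0.05; DESeq2 called 3 and limma-voom 0. The gene was LSF1, a phosphatase-like regulator of starch breakdown. Its Ler allele took 3.70%, 2.17% and 2.52% of counts in F1 Col x Ler and 63.6%, 55.0% and 46.2% in F1 Ler x Col, a cross difference of -5.43 (SE 0.454, edgeR adjusted p = 1.87e-06). LSF1 parents were not called apart, at 28.7, 32.3 and 32.9 CPM in Ler and 29.8, 21.4 and 29.1 CPM in Col. LSF1 overlaps another annotated gene, and whether counting used strand is not stated.

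The same measure was taken in the 12 prmt5-5 libraries, which had no role in the wild-type calls. In them the remainder was called for 1823 genes (11.9%), above 0 for 1189 (7.76%) and below 0 for 634 (4.14%), and it had the same sign as in wild type for 61.5% of all 15319 genes. Of the 1828 genes called in wild type, the sign was the same for 80.5%, and 675 were also called with that sign. Trans-only genes had the same sign in 76.5%, with 180 of 750 called the same way, compensated genes in 85.4% and opposing genes in 88.1%. Cis-only genes, whose wild-type remainder was not called, had the same sign in 56.9%.

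**Figure D5:**
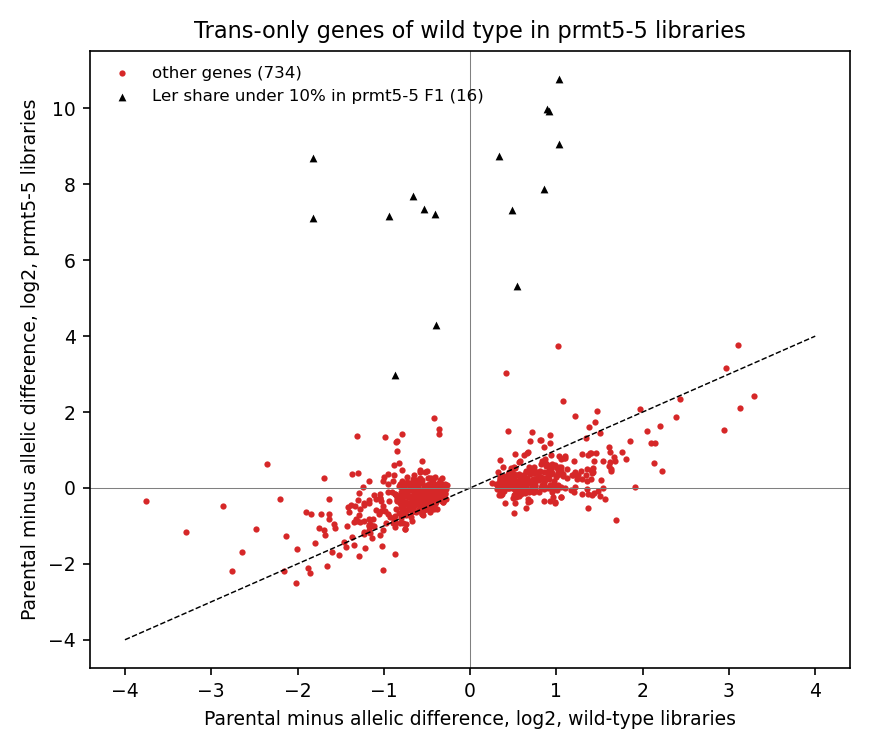
Remainder in prmt5-5 libraries (vertical axis) against remainder in wild-type libraries (horizontal axis), log2, for the 750 trans-only genes of wild type; black triangles are 16 genes whose Ler share is under 10% in prmt5-5 hybrids, and the dashed line marks equality. Most points lie in the lower left and upper right, and the triangles lie above 2 on the vertical axis.

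The remainder differed between prmt5-5 and wild type for 599 genes (3.91%), 432 higher (2.82%) and 167 lower (1.09%) in prmt5-5. This count was 900 without Ler prmt5-5 replicate 1. Of the 599, 207 were genes with a Ler share under 10% in prmt5-5 hybrids and at least 20% in WT hybrids, and 201 of these 207 start between 14730215 and 16174756 on chromosome 4 of TAIR10.1, an interval that contains PRMT5, with the other 6 on chromosome 2. PRMT5 itself had a Ler share of 0.189% in prmt5-5 hybrids and 53.1% in WT hybrids. Leaving these genes out, 392 calls remained.

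In prmt5-5 libraries 14 of the 21 flavonoid genes had a called remainder below 0, with a median of -0.83, against 4.14% of all genes tested. Several clock genes differed from wild type. 4CL3 was at -1.23 in prmt5-5 and -1.68 in wild type, and DFR at -1.21 in prmt5-5 and -1.23 in wild type, and UGT78D1 was the 1 listed gene whose genotypes were called apart, at -0.80 in prmt5-5 and -1.50 in wild type. Of the clock list, 7 of 25 genes were called apart, against 3.91% of all genes tested. CCA1 was at 0.34 in prmt5-5 and -0.88 in wild type, a difference of 1.21 (edgeR adjusted p = 1.98e-05), and LHY at 0.19 in prmt5-5 and -1.18 in wild type, a difference of 1.35. These differences and the prmt5-5 values come from the fit of all 24 libraries and the wild-type values from the fit of WT libraries alone, so they need not subtract exactly. PRR5 was at -0.24 in prmt5-5 and 0.96 in wild type, and PRR7 at 0.36 in prmt5-5 and 1.37 in wild type.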

How the data were processed

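RNA-seq was measured in 24 libraries of entire seedlings, and the 12 WT libraries carry the comparison. The authors deposited whole-number counts per gene, 1 table of parental libraries and others of Ler-allele and Col-allele counts in the F1 libraries. Per the submitters' processing notes, Trim Galore, FastQC and STAR 2.7.9a were used with TAIR10; the counter, its strand setting and the allele assignment rule are not given in these sources. Reads that hold no difference between the accessions cannot be assigned, so allele counts cover part of each gene. The library kit named in the labels' protocols is random-primed.

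Counts were fitted in R 4.3.3 with edgeR 4.0.16 (glmQLFit with robust dispersion and glmQLFTest, two-sided), with 18 columns for WT (6 parental, 12 allele columns), each F1 library as a block, 1 allele effect per cross and 8 residual degrees of freedom. Both alleles of a library shared 1 TMM scaling. Each gene had 1 spread, estimated over parental and allele columns together. It mixes variation between parental libraries with variation between the alleles within F1 libraries. The parental, allelic and remainder tests all used it, so their standard errors do not separate these sources. Nuclear genes with a mean of at least 20 parental counts and 20 summed allele counts were tested, and Benjamini-Hochberg adjustment ran over all 15319 of them at 0.05. Another 3 genes without a value in the Ler columns were left out. A second fit of 36 columns held all 24 libraries. Gene positions and products came from RefSeq TAIR10.1, which matched 32835 of 33602 gene identifiers. Copies were found with BLAST 2.17.0. The self-test on simulated data for the remainder, over 15319 genes, recovered 90% of 50 genes changed by -1, 30% at 0.5, 92% at 1 and 98% at 2 on the log2 scale, with 12 false calls. The simulated counts had negative binomial spread only, no other parental or allelic difference and no errors of allele assignment. Their spread came from the same fit, so the self-test cannot show an effect of mixing the 2 kinds of columns. Recovery and false calls in the real counts may therefore differ.

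Named genes were the 10 largest called remainders in each direction, the 4 largest of each class in each direction with at least 50 mean counts, the 4 smallest p-values of the cross and genotype differences and the 4 smallest p-values of each of 20 lists; not every such gene is described, and any other list member is named from its list. The members and lists were chosen with earlier results of these data known. Floors of 3 counts cover counting error only. Same-numbered parental replicates were not paired (correlations of their deviations -0.07, -0.09 and -0.18). Alternatives were other scalings, count minimums of 1 and 100, DESeq2 1.42.0, limma 3.58.1 voom, a replicate block, parental counts thinned to the overall F1 depth, each cross alone, stricter thresholds and leaving out each library. Those that drop genes with copies, overlaps or a low mutant Ler share were added after the data were seen.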

Additional observations from a re-analysis of the deposited data

Results flagged for a closer look

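LSF1 differed between crosses: the allelic difference in F1 Col x Ler minus that in F1 Ler x Col was -5.43 (SE 0.454, edgeR adjusted p = 1.87e-06), with the Ler allele lower in 3 of 3 Col x Ler hybrids than in each Ler x Col hybrid. The 4 genes with the smallest p in the comparison of prmt5-5 with wild type all lie on chromosome 4 and have almost no Ler allele counts in prmt5-5 hybrids. PBA1, a proteasome subunit, had a remainder 9.37 higher in prmt5-5 (SE 0.176). EIF3K, a translation initiation factor subunit, differed by 8.80 (SE 0.189). SHM3, a serine hydroxymethyltransferase, differed by 9.48 (SE 0.222). CYP83B1, an enzyme of indole glucosinolate synthesis, differed by 7.55 (SE 0.188). The part of retained Col segments in these values was not tested beyond the Ler shares.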

How the results depend on the processing

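No value reversed its sign among 2532 recomputed for 104 genes, which were called remainders and the uncalled parental difference of IGMT4: 2388 stayed on their side of the threshold, 143 lost a call and 1, of IGMT4, gained one. These genes were taken for their calls and most fits share libraries, so few reversals were likely in any case. Sizes did change: the remainders of LSF1 and AT3G01310 were 2.74 and 1.38 in the main fit and 0.03 and 0.35 at their lowest. The remainder was called for 1162 genes with the alleles of F1 Col x Ler alone, where the allelic difference had 2877 calls and reinforcing, opposing and compensated genes numbered 107, 178 and 329. With F1 Ler x Col alone, 158 genes were reinforcing. Compensated genes numbered 954 with a minimum mean count of 1 and 302 with limma-voom. At an adjusted p of 0.01, trans-only, reinforcing, opposing and compensated genes numbered 401, 130, 140 and 325. With a size of at least 0.5 for each call, cis-only, reinforcing, opposing and ambiguous genes numbered 1231, 125, 121 and 1557. The cross difference had 2 calls with library totals, 2 with the replicate block, 2 with parental counts thinned to the overall F1 depth, 3 with DESeq2, 0 with limma-voom and 0 without overlapping genes. The genotype difference had 392 calls without genes of low mutant Ler share. Leaving out 1 library gave 3805 to 4987 parental calls, 3882 to 4702 allelic calls, 1277 to 1879 remainders, 1 to 2 cross differences, 472 to 776 trans-only, 182 to 270 reinforcing, 197 to 294 opposing, 404 to 508 compensated genes and 460 to 900 genotype differences. The cause of these changes was not tested. Replicate numbers share only a number; with them as a replicate block on the parents the remainder was called for 1677 genes, 793 above and 884 below 0. That thinning gave 1668 remainders, and at the depth of these libraries 30% of simulated remainders of 0.5 were recovered.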
